A study of Mus musculus with 8 samples.

Results

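The Gimap genes encode GTPases of immunity-associated proteins, a small family of GTP-binding proteins found mainly in lymphocytes. All 8 members named Gimap1, Gimap3, Gimap4, Gimap5, Gimap6, Gimap7, Gimap8 and Gimap9 were taken by symbol from the 36811 gene models of the deposited table, whatever their values. The values come from RNA sequencing of regulatory T (Treg) cells isolated from C57BL/6 mouse spleen at 12 to 13 weeks of age, all with the genotype Foxp3EGFP-DTR Bach2tdRFP/+. All cells thus carried a green Foxp3 reporter, which marks Treg cells, and a red reporter at 1 Bach2 allele, and the comparison is between sorted fractions of reporter mice, not between genotypes. Foxp3-GFP positive cells, enriched beforehand for CD4 T cells, were sorted by the red signal into a Bach2-RFP LO and a Bach2-RFP HI fraction. Each fraction had 4 libraries, labelled F1 and F2 (female) and M1 and M2 (male). The labels do not state whether libraries came from separate or pooled animals, so each p-value reflects no more than the spread among the libraries at hand. Bach2 encodes a transcriptional repressor that restrains effector differentiation of T cells.

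Gimap proteins share a GTP-binding domain and differ in their tails, by which several of them sit on the endoplasmic reticulum, the Golgi apparatus, lysosomes or mitochondria. In mice they are known mainly for keeping resting lymphocytes alive, and loss of single members leads to a shortage of T cells or to altered cell death. The genes lie side by side in 1 cluster on mouse chromosome 6, in the order Gimap8, Gimap9, Gimap4, Gimap6, Gimap7, Gimap1, Gimap5 and Gimap3. Gimap6 and Gimap3 are on the minus strand and the others on the plus strand of the annotation.

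The 250 bases before the annotated start of 4 members are shown because these genes carry the results below. Gimap7 differed most between the fractions, Gimap4 and Gimap3 moved with it between libraries, and Gimap1 moved the other way. Gimap6 also moved with Gimap7 and Gimap5 against it, and neither is among the 4 shown. The sequences are those of RefSeq on build GRCm38.p6, read 5′ to 3′ on the gene's strand and ending at the base before the start. They are at chr6:48718371-48718620 (plus strand) for Gimap7, chr6:48684328-48684577 (plus) for Gimap4, chr6:48770852-48771101 (minus) for Gimap3 and chr6:48738797-48739046 (plus) for Gimap1. The deposited values were made on an earlier build. Capitals mark letters of the motifs searched, on either strand.
Gimap7: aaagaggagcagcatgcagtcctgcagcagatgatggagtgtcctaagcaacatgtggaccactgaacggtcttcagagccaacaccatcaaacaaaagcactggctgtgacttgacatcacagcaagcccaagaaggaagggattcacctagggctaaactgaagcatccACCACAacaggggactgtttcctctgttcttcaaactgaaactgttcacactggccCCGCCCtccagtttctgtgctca
Gimap4: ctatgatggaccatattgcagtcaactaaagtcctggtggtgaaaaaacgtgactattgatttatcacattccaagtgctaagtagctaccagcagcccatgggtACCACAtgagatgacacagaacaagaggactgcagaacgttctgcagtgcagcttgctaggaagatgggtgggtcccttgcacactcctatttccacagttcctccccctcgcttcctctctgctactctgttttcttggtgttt
Gimap3: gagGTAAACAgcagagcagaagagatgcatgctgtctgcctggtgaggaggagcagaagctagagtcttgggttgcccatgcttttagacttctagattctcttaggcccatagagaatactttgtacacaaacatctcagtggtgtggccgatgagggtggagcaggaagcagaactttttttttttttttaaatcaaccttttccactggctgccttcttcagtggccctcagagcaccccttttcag
Gimap1: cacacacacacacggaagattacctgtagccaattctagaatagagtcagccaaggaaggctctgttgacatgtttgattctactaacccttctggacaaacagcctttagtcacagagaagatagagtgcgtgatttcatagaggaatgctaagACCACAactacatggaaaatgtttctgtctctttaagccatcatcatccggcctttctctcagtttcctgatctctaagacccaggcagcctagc

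The motifs were searched on both strands in the 300 bases from 250 before to 50 after the start. For the 8 members the table holds 9 such windows, since Gimap8 has an alternative start. The letters TGTGGT of the RUNX motif stood in the windows of Gimap1, Gimap4 and Gimap7, against 16.8% of all 32851 promoter windows. GGAAGT of the ETS motif stood in those of Gimap1, Gimap5, Gimap6 and Gimap9, against 23.8% of all windows. In Gimap1 and Gimap9 these letters stood only after the start, so the printed Gimap1 sequence does not hold them. The longer ETS form ACTTCCG, which overlaps the shorter form, was found in Gimap6, against 6.42% of all windows. CTTTGAA of the TCF/LEF motif was found in Gimap7 after its start, against 5.14% of all windows, and CTTTGAT in none of the 9 windows, against 3.73%. GTAAACA of the FOXO motif was found in Gimap3, against 3.65%. GGGCGG of the Sp/KLF motif was found in Gimap7 and Gimap9, against 35.7%, and TATAAA in Gimap6, against 13.6%. The AP-1 and Bach letters TGAGTCA, which read TGACTCA on the other strand, were in none of the 9 windows, against 5.20% of all promoters. These are matches of letters in these windows and no more. The 9 windows held 2 to 8 CpG pairs, where the median of all promoters was 7.

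The sort could be checked on Bach2 itself, which stood at 0.894, 0.447, 0.753 and 0.670 FPKM in LO F1, F2, M1 and M2, against 13.6, 20.7, 19.4 and 8.62 FPKM in HI F1, F2, M1 and M2. FPKM stands for fragments per kilobase of transcript, scaled between libraries in a way that is not given. Over all models, FPKM summed to 1494240 (LO M2) to 1758938 (LO F1) in LO libraries. In HI libraries the sums ran from 1836669 (HI F1) to 2142813 (HI M1). The highest single model held 24.5% (HI F2) to 30.4% (HI F1) of a library's sum. No fit was scaled to these sums, and their part in the Gimap values was not tested. Foxp3 was present in every library, at 10.5 to 19.8 FPKM in LO and 13.3 to 15.2 FPKM in HI cells. Sequencing depth could be estimated only relative to HI F1, from the most frequent ratio of low values between a library and HI F1. By this estimate LO M2 was the deepest library at 5.28, and the others lay between 0.637 (HI M1) and 1.27 (HI F2). Of 7 T cell markers, 0 passed the test of LO against HI, and of 5 Treg cell markers 3 rose and 1 fell. In LO cells, 3 of 7 tested markers of B cells fell, as did 2 of 8 of myeloid cells, 3 of 5 of plasmacytoid dendritic cells and 1 of 3 of NK cells, while 2 of 5 plasma cell markers rose. By the same test, 3.64% of all tested genes fell and 4.65% rose in LO. Summed B cell markers were at 77.3 to 104 FPKM in LO and 146 to 244 FPKM in HI libraries. Cd79b, the largest part of these sums, averaged 75.9 FPKM in LO and 95.8 FPKM in HI and did not pass (limma, adjusted p = 0.367). Pax5, below the filter, was at 0 in the 4 LO libraries and in HI M1. Those of plasmacytoid dendritic cells summed to 135 to 242 FPKM in LO and 254 to 349 FPKM in HI libraries. Bst2, the largest part of these sums, averaged 177 FPKM in LO and 215 FPKM in HI and did not pass (limma, adjusted p = 0.415). Siglech was at 0 in LO F1 and LO M1. The sums of myeloid markers were 389 to 672 FPKM in LO and 536 to 747 FPKM in HI. Cst3, the largest part of the myeloid sums, was higher in LO by mean (335 and 274 FPKM), as was Itgam (3.28 and 1.04 FPKM). Neither passed (limma, adjusted p = 0.495 and 0.181), and the other tested myeloid markers were lower in LO by mean. NK cell markers summed to 3.48 to 32.8 FPKM in LO and 32.4 to 45.2 FPKM in HI, and plasma cell markers to 178 to 269 FPKM in LO and 123 to 150 FPKM in HI. The plasma cell markers did not move together. Jchain rose (means of 89.0 FPKM in LO and 10.8 FPKM in HI), as did Prdm1 (22.0 and 3.09 FPKM). Mzb1 (4.95 and 9.66 FPKM) and Xbp1 (104 and 112 FPKM) were lower in LO by mean, and Sdc1 had a log2 difference of 1.06. Mzb1, Xbp1 and Sdc1 did not pass (limma, adjusted p = 0.315, 0.762 and 0.422). The part of such cells in the Gimap values was not tested, and in bulk samples fewer cells of a type and less RNA per cell cannot be told apart.

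All 8 Gimap genes were expressed in both fractions and none passed the test of LO against HI. The test was limma on log2(FPKM + 1) over the 11260 genes with at least 1 FPKM in at least 4 libraries, with an adjusted p below 0.05 as threshold, and all 8 members passed that filter in every library. Of all tested genes, 8.29% passed (934 genes; 4.65% higher and 3.64% lower in LO), and of the 5128 with a mean of at least 20 FPKM, like the members, 10.2% passed. With 8 members, a count of 0 is near that background and is no result about the family. Without adjustment, 1 of the 8 members, Gimap7, had a p below 0.05, against 20.9% of tested genes. The LO and HI values overlapped for each of the 8 members, whereas 15.1% of tested genes did not overlap, 7.9% being higher in LO. On the log2 scale 5 members were above 0 and 3 below, with a median difference, LO minus HI, of 0.086 against -0.026 over all tested genes. Summed over the family, the level was 3588 ± 615 FPKM in LO and 3374 ± 115 FPKM in HI cells (SD, n = 4 each). The LO libraries spanned 3048 to 4431 FPKM and the HI libraries 3258 to 3531 FPKM, and the range of LO held that of HI.

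**Figure D1:**
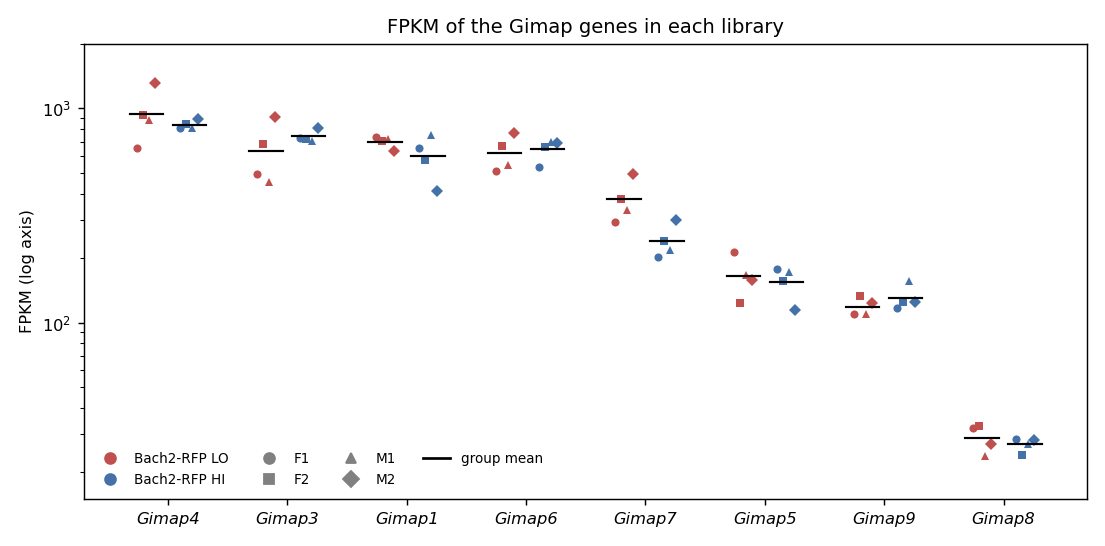
FPKM (log axis) of the 8 Gimap genes in each library, ordered by mean level, with LO (red) left of HI (blue), the marker shape for the library label and a black line at the group mean. Gimap4 was highest with means of 943 in LO and 839 in HI, Gimap8 was lowest at 29.0 and 27.1, and the groups overlapped for every gene.

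The order of the levels per transcript length was the same in both fractions at its lower end. Gimap4 averaged highest, Gimap7 held rank 5 in every library, and Gimap8 was last in every library. Gimap4 exceeded Gimap3 in 8 of 8 libraries. Gimap3, Gimap1 and Gimap6 followed with overlapping ranges. Gimap3 was above Gimap1 in 4 of 8 libraries and Gimap1 above Gimap6 in 5 of 8. By mean, Gimap1 held rank 2 in LO and 4 in HI, Gimap3 rank 3 and 2, and Gimap6 rank 4 and 3. These orders were not tested. Gimap6 was above Gimap7 in 8 of 8 libraries, and Gimap7 above Gimap5 in 8 of 8. Gimap5 was above Gimap9 in 6 of 8 libraries, with overlapping ranges, and Gimap9 above Gimap8 in 8 of 8. Among the 11260 tested genes, Gimap4 was higher than 98.4%, Gimap3 than 98.1% and Gimap8 than 62.7%.

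Gimap7, a member whose human protein speeds GTP hydrolysis by another GIMAP protein, showed the largest difference of the family. It stood at 296, 377, 334 and 496 FPKM in LO F1, F2, M1 and M2, against 201, 241, 217 and 300 FPKM in HI F1, F2, M1 and M2. A single pair of libraries made the groups overlap, since LO F1 lay just below HI M2. The means were 376 ± 86.8 FPKM in LO and 240 ± 43.3 FPKM in HI cells (SD, n = 4 each), a ratio of 1.57. On the log2 scale LO exceeded HI by 0.63 (standard error 0.191), with a 95% interval from 0.21 to 1.06 (limma, adjusted p = 0.0770). The exact permutation test over the 70 ways to split the libraries gave a two-sided p of 0.0571, where 0.0286 is the smallest it can give.

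Gimap7 was higher in libraries numbered 2 than in libraries numbered 1 of the same fraction. Among libraries numbered 1 the LO values (296 and 334 FPKM) lay above the HI values (201 and 217 FPKM), a log2 difference of 0.59. Among libraries numbered 2 the LO values (377 and 496 FPKM) also lay above the HI values (241 and 300 FPKM), a log2 difference of 0.68. With the library number as a covariate, a fit chosen after these values were seen, the adjusted p was 0.0222 (limma), where 9.17% of all tested genes passed, against 6.85% with the library label as a block, under which Gimap7 was also the 1 member that passed. What the number stands for is not given in the labels. Without LO M2, the deepest library and the highest in Gimap7, the log2 difference was 0.49 (limma, adjusted p = 0.139).

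As a share of the summed FPKM of the family, Gimap7 made up 9.72% to 11.2% in the 4 LO libraries and 6.15% to 8.91% in the 4 HI libraries. These ranges did not overlap, a comparison chosen after the values were seen and not tested. For Gimap3 the share was 14.0% to 20.6% in LO and 19.96% to 24.0% in HI libraries, which overlapped.

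**Figure D2:**
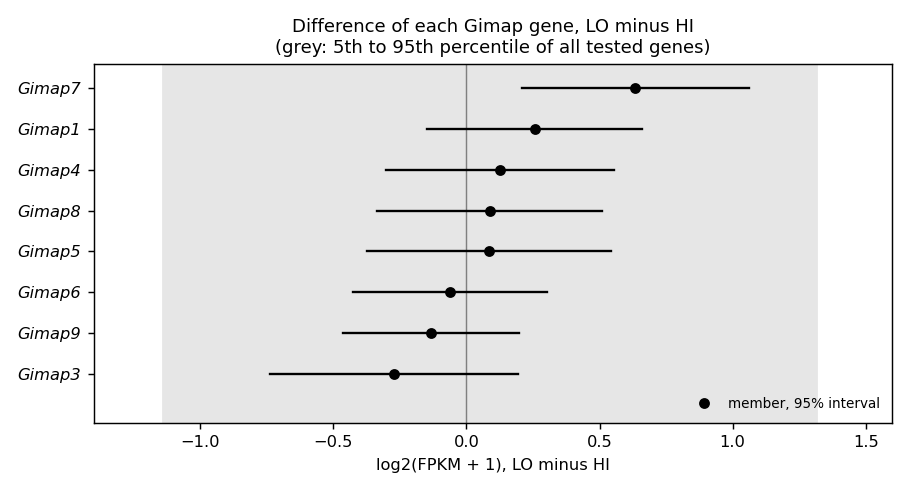
Difference in log2(FPKM + 1), LO minus HI, of each Gimap gene (point) with its 95% interval (line), over the 5th to 95th percentile of all tested genes (grey, -1.14 to 1.32). Intervals are not adjusted for the number of genes. Gimap7 at 0.63 is the member whose interval lies above 0, and the other 7 intervals hold 0.

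Gimap1 and Gimap5 are the members whose loss in mice most clearly costs T cells. Gimap1, a membrane protein needed for the survival of mature lymphocytes, stood at 738, 703, 721 and 635 FPKM in LO F1, F2, M1 and M2, against 656, 572, 752 and 412 FPKM in HI F1, F2, M1 and M2. The LO libraries lay close together, and HI M2 was the lowest of the 8 libraries while HI M1 was the highest. The log2 difference was 0.26 with a standard error of 0.181 and a 95% interval from -0.15 to 0.66 (limma, adjusted p = 0.476). It was 0.089 without HI M2 and 0.38 without HI M1.

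Gimap5, a lysosomal protein whose loss in mice causes lymphopenia and colitis with impaired Treg cells, stood at 214, 123, 167 and 158 FPKM in LO F1, F2, M1 and M2. The HI libraries F1, F2, M1 and M2 had 177, 157, 173 and 114 FPKM. The groups overlapped over most of their range, with a log2 difference of 0.085, a standard error of 0.205 and a 95% interval from -0.37 to 0.54 (limma, adjusted p = 0.866). As folds on the log2(FPKM + 1) scale, that interval runs from 0.772 to 1.46.

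Gimap3, a close relative of Gimap5 that influences the inheritance of mitochondrial DNA in mouse blood cells, stood at 496, 681, 454 and 911 FPKM in LO F1, F2, M1 and M2. In HI F1, F2, M1 and M2 it stood at 728, 719, 705 and 807 FPKM. The HI values lay within the range of the LO values, which spread 2.01-fold in LO and 1.14-fold in HI between the lowest and the highest library. The log2 difference was -0.27 with a standard error of 0.208 and a 95% interval from -0.74 to 0.19 (limma, adjusted p = 0.520). Of the 50-base windows of the longest Gimap3 transcript, 9.83% lay on the same strand of another annotated gene's transcript, most of them in a transcript of Gimap5. Reads from those stretches can be split between such genes, so the levels of Gimap3 and Gimap5 are uncertain to that extent. The share was 2.62% for Gimap7 (in another gene model annotated within the cluster), 2.30% for Gimap1, 0.0639% for Gimap6 and 0 for the other members. For each member the longest transcript alone was searched. The 0 for Gimap5 thus leaves out the stretch shared with Gimap3, which lies in a shorter transcript of Gimap5.

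Gimap4, which affects the pace of T cell death in mice, stood at 654, 927, 879 and 1313 FPKM in LO F1, F2, M1 and M2, against 815, 842, 808 and 891 FPKM in HI F1, F2, M1 and M2. LO F1 was the lowest and LO M2 the highest of the 8 libraries, with the HI libraries between them. The log2 difference was 0.13 with a standard error of 0.191 and a 95% interval from -0.30 to 0.55 (limma, adjusted p = 0.774), and it turned to -0.049 without LO M2.

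Gimap6, which binds the autophagy protein Gabarapl2, stood at 508, 666, 543 and 769 FPKM in LO F1, F2, M1 and M2, against 534, 658, 694 and 690 FPKM in HI F1, F2, M1 and M2. The fractions interleaved, and the 95% interval of the log2 difference ran from -0.43 to 0.30 (limma, adjusted p = 0.875). Gimap9 stood at 109, 132, 110 and 123 FPKM in LO F1, F2, M1 and M2, against 118, 125, 156 and 124 FPKM in HI F1, F2, M1 and M2, with a 95% interval from -0.46 to 0.20 (limma, adjusted p = 0.674). Gimap8, a large member with several GTPase-like domains in a single chain, stood at 32.1, 32.9, 23.9 and 27.1 FPKM in LO F1, F2, M1 and M2, against 28.7, 24.2, 27.2 and 28.3 FPKM in HI F1, F2, M1 and M2. Its interval ran from -0.33 to 0.51 (limma, adjusted p = 0.848). Over the 7 members other than Gimap7, the 95% intervals of the difference, as folds on the log2(FPKM + 1) scale, lay between 0.599 (lower end for Gimap3) and 1.58 (upper end for Gimap1).

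The members did not vary alike between libraries of the same fraction. Gimap3, Gimap4, Gimap6 and Gimap7 were each highest of the LO libraries in LO M2 and second in LO F2. In LO M2 they stood at 1.68, 1.601, 1.34 and 1.48 times the mean of the other LO libraries, where the median over all tested genes was 0.965. After taking out the group means, the 6 pairs among these 4 genes had Pearson r from 0.804 to 0.854 over the 8 libraries. Those of Gimap6 were higher in LO than in HI. Over the 4 libraries of a fraction its r with Gimap3 was 0.964 in LO and 0.216 in HI, with Gimap4 0.927 in LO and 0.424 in HI, and with Gimap7 0.971 in LO and 0.634 in HI. Gimap1 and Gimap5 had r = 0.688 with each other, and their r with these 4 genes ran from -0.349 for Gimap1 with Gimap6 to -0.745 for Gimap1 with Gimap7. These correlations describe 8 libraries that differ in depth, and the gene groups were formed after the values were seen. The part of depth in them was not tested. Within a fraction, the pooled SD of log2(FPKM + 1) was between 0.158 (Gimap9) and 0.329 (Gimap3), against a median of 0.335 over the tested genes of at least 20 FPKM.

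**Figure D3:**
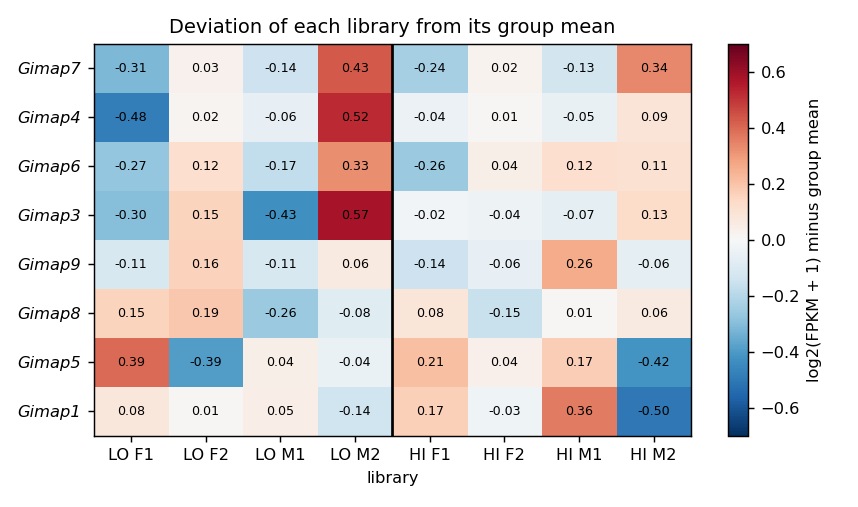
Log2(FPKM + 1) of each Gimap gene in each library minus the mean of its group (red above, blue below, values printed), with the LO libraries left of the HI libraries and the genes ordered after their values were seen. LO M2 is above its group mean for Gimap7, Gimap4, Gimap6 and Gimap3 (0.43, 0.52, 0.33 and 0.57) and below it for Gimap1 (-0.14).

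Among named genes outside the family, those most like the mean log2 level of the 8 members over the 8 libraries included Nelfcd (Pearson r = 0.963), Mon1b (0.951), Pdia6 (0.948) and Arih2 (0.937). After taking out the group means they were Man2b1 (r = 0.996), a lysosomal mannosidase, Psma1 (0.984), a proteasome subunit, Ctu1 (0.976), Scmh1 (0.970) and Pdia6 (0.970). They stood near the top of 9866 genes ranked over 8 libraries, of which 87 exceeded 0.9 on the second measure and 17 on the first. Pdia6, which encodes a protein disulfide isomerase, averaged 176 FPKM in LO and 157 FPKM in HI cells, and its difference did not pass the test (limma, adjusted p = 0.824).

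The genes beside the cluster were at lower levels than most members. Of the 8 protein-coding genes on each side, 14 were in the table, 9 were tested, Atp6v0e2 was below the filter, and 4 on the side of Gimap3 (Aoc1, 1600015I10Rik, Doxl2 and Svs1) were listed at 0 in every library. The highest value of any of them was 65.1 FPKM. Tmem176a, the second gene past Gimap3, encodes a membrane protein of the same family as its neighbour Tmem176b. It rose in LO cells, at 30.4, 25.2, 33.8 and 20.4 FPKM in LO F1, F2, M1 and M2, against 15.2, 7.604, 6.94 and 13.5 FPKM in HI F1, F2, M1 and M2. The groups did not overlap, and the log2 difference was 1.31 (standard error 0.304; limma, adjusted p = 0.0259). Leaving out any of LO F1, LO F2, LO M1, HI F2 or HI M1, or HI M1 and LO M2 together, ended that call (limma, adjusted p = 0.0600 to 0.0756), as did the library label as a block (adjusted p = 0.0605). Tmem176b averaged 43.3 ± 18.2 FPKM in LO and 21.4 ± 11.9 FPKM in HI cells (SD, n = 4 each) and did not pass (limma, adjusted p = 0.162), but it passed with HI M1 left out (adjusted p = 0.0475, and 0.0498 with LO M2 left out too) and with the library number as a covariate (adjusted p = 0.0405). The other 7 tested neighbours, AI854703, Zfp775, Repin1, Rarres2, Lrrc61, Gpnmb and Malsu1, had adjusted p from 0.581 to 0.990 (limma).

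**Figure D4:**
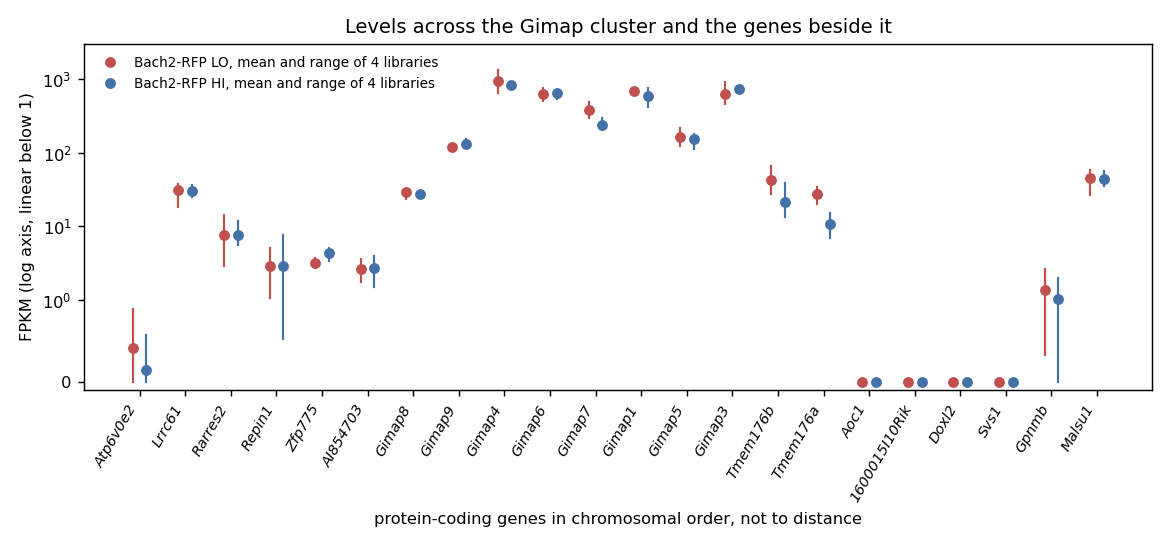
FPKM (log axis, linear below 1) of the 8 Gimap genes and of the 14 protein-coding genes beside them that are in the table, in chromosomal order and not to distance, as the mean (point) and range (line) of 4 LO (red, left) and 4 HI (blue, right) libraries. The Gimap genes reach means of 943 FPKM, and no neighbour exceeds 65.1 FPKM in any library.

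Other GTPases of immune cells, mostly induced by interferon, were taken beside the Gimap genes. Of 16 tested genes of the guanylate-binding, immunity-related and Mx families, 0 rose and 0 fell, where 8.29% of all tested genes passed. With 16 genes, a count of 0 is near that share and is no result about these families. The median log2 difference of the 16 genes was 0.35, against -0.026 over all tested genes. The smallest p was that of Tgtp2, at 25.1, 11.7, 9.15 and 14.2 FPKM in LO F1, F2, M1 and M2, against 39.6, 37.9, 21.3 and 40.6 FPKM in HI F1, F2, M1 and M2. It did not pass (limma, adjusted p = 0.0549), although leaving out LO F1 made it pass (adjusted p = 0.0209), as did leaving out HI M1 (adjusted p = 0.0338), raising the filter to 5 FPKM (adjusted p = 0.0495) or taking the library label as a block (adjusted p = 0.0346). Tgtp1 is a near copy of Tgtp2 with which it can share reads. It averaged 11.6 ± 5.67 FPKM in LO and 23.8 ± 12.5 FPKM in HI cells (SD, n = 4 each), with a limma adjusted p of 0.209. Gbp7 and Gbp3, which did not pass, averaged 58.9 and 52.3 FPKM in LO against 44.1 and 38.8 FPKM in HI cells.

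Of 18 tested genes for reported partners of Gimap proteins and for autophagy, 0 rose and 1 fell, a share near the 8.29% of all tested genes that passed. Their median log2 difference was 0.076. The gene that fell was Bcl2, whose protein protects lymphocytes from apoptosis and has been reported to bind Gimap3 and Gimap5. It averaged 2.53 ± 1.08 FPKM in LO and 26.5 ± 3.20 FPKM in HI cells (SD, n = 4 each), a log2 difference of -3.02 (limma, adjusted p = 0.000527). Gabarapl2, the partner of Gimap6, averaged 66.3 FPKM in LO and 75.6 FPKM in HI cells and did not pass (limma, adjusted p = 0.655). Lamp1, Gabarapl1 and Atg7 had log2 differences of -0.82, 0.67 and 0.67 and did not pass (limma, adjusted p = 0.108, 0.198 and 0.238). Among 19 tested survival and apoptosis genes, 3 rose and 1, again Bcl2, fell, with a median of 0.10. Of all tested genes, 4.65% rose and 3.64% fell. Bcl2a1b, a relative of Bcl2 with near-identical copies that can share its reads, averaged 83.0 FPKM in LO and 37.2 FPKM in HI cells (limma, adjusted p = 0.0314), a call lost without LO F2, LO M1, LO M2, HI F1, HI F2 or HI M2 (adjusted p = 0.0751 to 0.0917), with no filter (adjusted p = 0.0563), with no variance trend (adjusted p = 0.0541) or with the library label as a block (adjusted p = 0.0504). Bid, a proapoptotic relative, averaged 62.6 FPKM in LO and 33.5 FPKM in HI cells (limma, adjusted p = 0.0393), a call lost without LO F1, LO F2, LO M2, HI F1, HI F2 or both HI M1 and LO M2 (adjusted p = 0.0818 to 0.0980), with no filter (adjusted p = 0.0577), with no variance trend (adjusted p = 0.0634) or with the library label as a block (adjusted p = 0.0625).

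Genes of the resting state and of homing to lymphoid organs, the setting in which Gimap genes are best known, were also looked at. Of 20 tested genes, 11 fell and 0 rose in LO cells, where 3.64% of all tested genes fell and 4.65% rose. The median log2 difference of the 20 genes was -0.72. The list leaves out Bach2, but it was drawn up with earlier results of these data known. Ccr7, a lymph node homing receptor, averaged 59.5 ± 13.6 FPKM in LO and 669 ± 39.0 FPKM in HI cells (SD, n = 4 each), a log2 difference of -3.49 (limma, adjusted p = 1.01e-05). Satb1, a chromatin organizer, and Igfbp4, a growth factor binding protein, were also among the genes of this list with the smallest p (limma, adjusted p = 0.000258 and 7.34e-06). Il7r, the interleukin-7 receptor chain that carries survival signals to resting T cells, averaged 73.1 FPKM in LO and 65.7 FPKM in HI cells and did not pass (limma, adjusted p = 0.705). Klf2 and S1pr1, which govern exit from lymphoid organs, did not pass either (limma, adjusted p = 0.774 and 0.795). Whether the Gimap genes differ from this list was not tested.

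**Figure D5:**
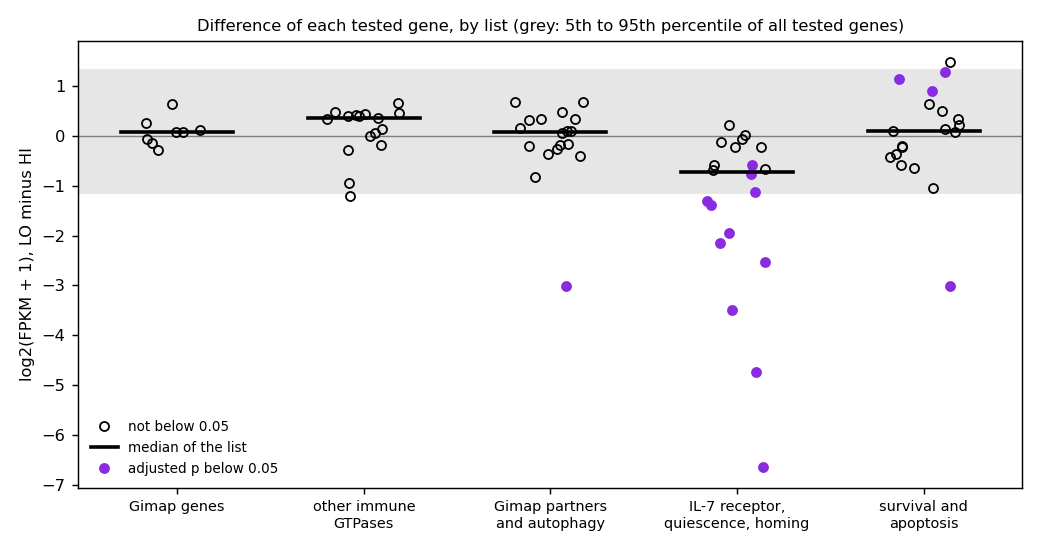
Difference in log2(FPKM + 1), LO minus HI, of each tested gene in the Gimap family and in 4 lists (filled where the adjusted p is below 0.05, open otherwise), with the list's median (line) and the 5th to 95th percentile of all tested genes (grey). The 8 Gimap genes lie between -0.27 and 0.63 with 0 filled points, while 11 of the 20 genes of the interleukin-7 receptor, quiescence and homing list are filled, all below 0. The lists were drawn up with earlier results of these data known, and the difference between them was not tested.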

How the data were processed

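Treg cells of 8 libraries were sequenced after SmartSeq2 library preparation, per the labels' protocols, and libraries were grouped as LO or HI by their titles. The design text of the series concerns another experiment, on single cells, which was not analysed here. The authors deposited FPKM values, 1 column per library, from Cuffnorm per the table's name. Per the submitters' processing notes, cutadapt, HISAT2 and FastQC were used, without versions given, and the builds mm9 and NCBIM37 are listed. Not given in the sources used here are library scaling, annotation and use of strand, so overlapping or antisense genes cannot be told apart.

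Symbols were matched by Ensembl ID, for 31840 of 36811 models and all 8 members. Chromosomal order and transcripts came from GENCODE M21 and promoters, matched by symbol for all 8 members, from RefSeq, both on build GRCm38. The test was limma 3.58.1 under R 4.3.3, moderated by eBayes with a trend of variance on level, on log2(FPKM + 1) of genes reaching 1 FPKM in 4 or more libraries, and p-values were adjusted by Benjamini-Hochberg with a threshold of 0.05. The fit was tested on simulated data. Single genes were also tested with an exact permutation test. Relative depth is the inverse of the most frequent ratio of FPKM to that in HI F1. The ratio was taken over models below 2 FPKM in every library and above 0 in both libraries compared. Precision is limited by 4 libraries a group, and read depth itself is unknown.

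The members, lists and rules were chosen with earlier results of these data known. Named were all members, Bach2 and Foxp3, up to 4 genes of each list with the smallest p, the tested genes beside the cluster, and the 5 genes most like the members by each correlation, leaving out predicted symbols, receptor segments and small RNAs. Gabarapl2, Il7r, Klf2, S1pr1 and marker genes named singly were chosen after their values were seen. Protein features were not analysed here, and a few genes that these rules named are not reported here.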

Additional observations from a re-analysis of the deposited data

Results flagged for a closer look

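Gimap8 moved in opposite directions in libraries labelled female and male. The LO values (32.1 and 32.9 FPKM) lay above the HI values (28.7 and 24.2 FPKM) in F1 and F2, a log2 difference of 0.29. In M1 and M2 the LO values (23.9 and 27.1 FPKM) lay below the HI values (27.2 and 28.3 FPKM), a log2 difference of -0.12. This difference between the sexes was not tested. Both labels of each sex moved the same way for Gimap8. The mean difference also changed sign between the sexes for Gimap4 (-0.089 in female and 0.34 in male libraries) and Gimap5 (-0.039 and 0.21), but for both genes F1 and F2 differed in sign. There were 2 libraries a sex and fraction and 8 members examined, and no Gimap gene had a library set apart from the other 3 of its fraction by Dixon's criterion.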

How the results depend on the processing

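The fit was repeated with sex or the library label in the model, without each library or without HI M1 and LO M2 together, with the filter dropped or set at 5 FPKM, with a pseudocount of 0.1, with upper quartile or quantile scaling, with eBayes robust or without a trend, and, chosen after the data were seen, with the library number. Over these 19 fits, the count of 0 members passing became 1 in 2 fits, in both cases Gimap7, namely with the library label as a replicate block (adjusted p = 0.0237, limma, with 771 of all tested genes, 6.85%, passing) and with the library number (adjusted p = 0.0222). Same-labelled LO and HI libraries deviated together only weakly (r of 0.0149 to 0.113 over genes). Of the LO libraries, 3 of 4 correlated best with their own label. The deposited column names also give the LO and HI libraries of a label the same identifier. Whether that means the same animals is not stated. Gimap7 was higher in LO under all 4 labels. Its ratios of LO to HI were 1.47, 1.56, 1.54 and 1.65 in F1, F2, M1 and M2. Gimap7 ran from 0.45 to 0.75 on the log2 scale over the 19 fits, with adjusted p from 0.0222 to 0.228. In all, 146 of 152 member values kept their sign. Left out in turn, single libraries gave -0.049 to 0.29 for Gimap4, -0.055 to 0.22 for Gimap5 and -0.17 to 0.027 for Gimap6. Gimap4 was at -0.066 without HI M1 and LO M2, and Gimap6 at 0.077 under quantile normalization. In libraries numbered 1 alone, Gimap4 was at -0.098 and Gimap8 at -0.011, and in those numbered 2 alone Gimap3 was at 0.048, Gimap6 at 0.086 and Gimap9 at 0.036. The cause of these turns was not tested. Single libraries left out gave 0.089 to 0.38 for Gimap1, -0.46 to -0.13 for Gimap3, 0.024 to 0.17 for Gimap8 and -0.19 to -0.047 for Gimap9. With 4 libraries a group, the 95% intervals of the members were 0.66 to 0.93 wide from end to end on the log2 scale.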

Other observations

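Gimap1os, annotated on the strand opposite to Gimap1, was listed at 63.3, 77.7, 77.7 and 57.3 FPKM in LO F1, F2, M1 and M2, against 50.2, 67.2, 71.5 and 69.0 FPKM in HI F1, F2, M1 and M2. Its groups overlapped (limma, adjusted p = 0.819). The 50-base windows that the longest Gimap1 transcript shared with the other strand of annotated transcripts did not lie in Gimap1os. Whether the counting used strand is not given, so reads of the 2 genes cannot be told apart where any other transcripts of them overlap.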
